A study of Rattus norvegicus with 6 samples.

Results

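The corticosteroid receptors, the enzymes that control their ligand and a set of genes that the receptors switch on were examined in the kidneys of salt-fed rats of 2 strains. The list holds 10 genes: the receptors Nr3c1 and Nr3c2, the enzymes Hsd11b1 and Hsd11b2, and the response genes Sgk1, Fkbp5, Tsc22d3, Zbtb16, Klf9 and Ddit4. A probe set, which is a group of short probes that together report 1 transcript, belonged to a gene if the platform annotation gave that gene's symbol and no other. Of 31099 probe sets on the array, 13 met this rule, and they covered 9 of the 10 genes. Zbtb16 was not analysed here, since no probe set carried its symbol alone.

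Whole-kidney RNA came from 3 male Dahl salt-sensitive rats (Dahl S), a strain that becomes hypertensive on salt, and 3 male Lewis rats, with 1 array per rat. From an age of 5 weeks all 6 rats ate food with 8% NaCl for 8 weeks. Rats on ordinary food were not analysed here, so inherited differences and responses to salt cannot be told apart. Hormone levels were not analysed here either. In RNA of a whole organ, fewer cells of a type and less RNA per cell cannot be told apart.

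Corticosterone, the main glucocorticoid of the rat, acts through the glucocorticoid receptor, the product of Nr3c1, and can also occupy the mineralocorticoid receptor, the product of Nr3c2. In the aldosterone-sensitive distal nephron the enzyme encoded by Hsd11b2 inactivates corticosterone, which leaves the mineralocorticoid receptor to aldosterone, whereas the enzyme encoded by Hsd11b1 regenerates active glucocorticoid. Hormone-bound receptors enter the nucleus and bind DNA near target genes such as Sgk1, a kinase gene that promotes sodium channel activity.

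Array brightness differed before normalization. The median signal lay between 38.9 and 69.7 on the Lewis arrays and between 63.4 and 81.2 on the Dahl S arrays, with Lewis array 1 the dimmest. Values below are normalized signals, that is, intensities after quantile normalization, which gives each array the same distribution. Differences are Dahl S minus Lewis on the scale of log2(normalized signal + 16), which understates changes of dim genes, and are relative to the typical probe set. Proximal tubule markers were bright on every array. The summed normalized signal of 11 genes was 43324 to 43915 in Dahl S and 48910 to 51929 in Lewis.

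Of the 9 genes measured, 4 were lower in Dahl S, 0 were higher and 5 did not pass the test. The 4 were Sgk1, Fkbp5, Tsc22d3 and Klf9, all of them response genes. Neither receptor and neither enzyme passed. At an unadjusted p under 0.05 (limma), 5 were lower, Hsd11b2 being added, and 0 were higher. Over all 9540 genes tested, 7.62% were lower in Dahl S and 9.04% were higher, 16.7% in all (limma, adjusted p under 0.05 over all probe sets tested). Counted over probe sets, the shares were 7.75% and 8.5%. The median difference was -0.68 over the 5 response genes measured and 0.0046 over all genes tested. All 9 genes passed the filter on low values, and none of them did so through a single strain.

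**Figure D1:**
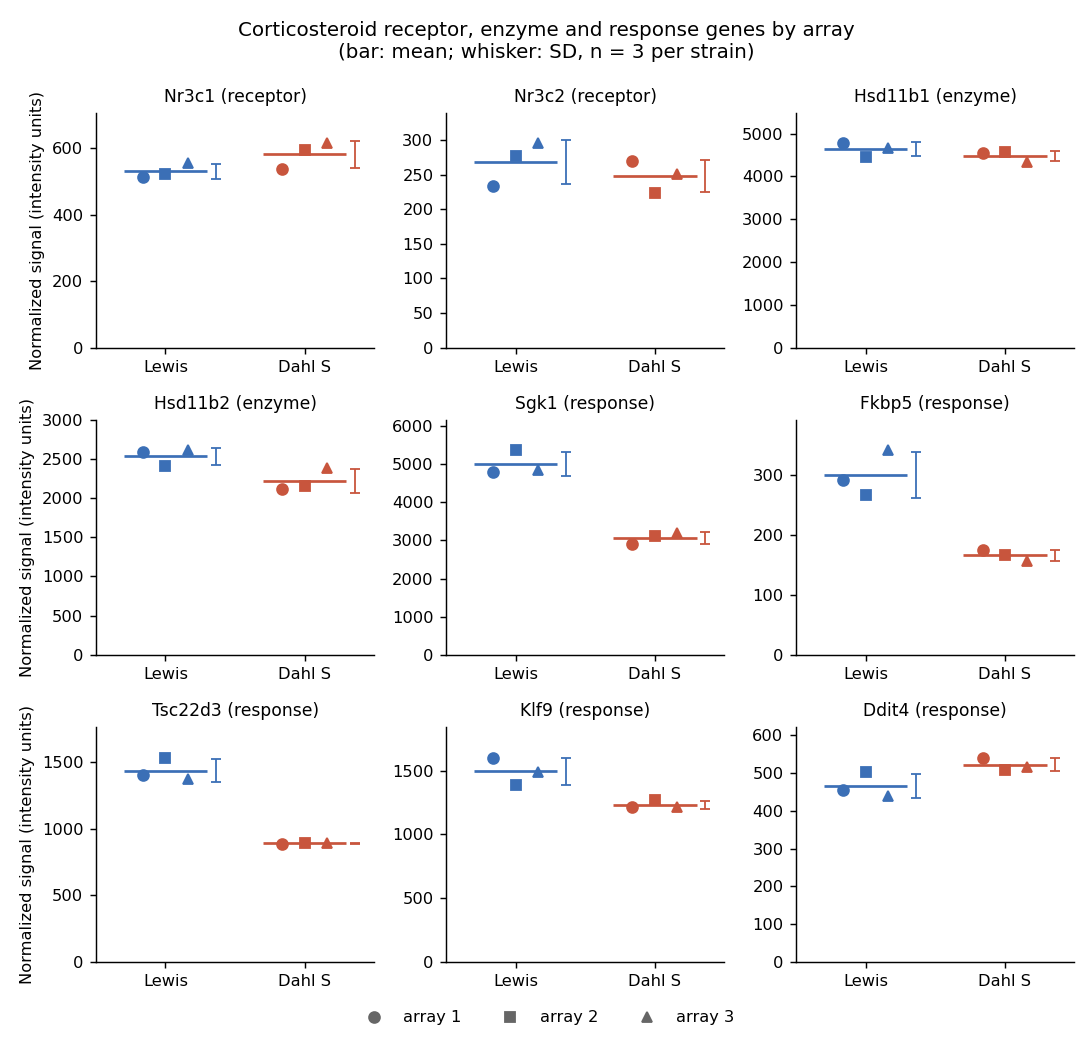
Normalized signal (y axis, intensity units, from 0) of the brightest probe set of each gene, with 1 point per array; bars are strain means and whiskers the SD of 3 arrays. The Dahl S points of Sgk1, Fkbp5, Tsc22d3, Klf9 and Hsd11b2 lie below every Lewis point, and those of Ddit4 lie above. Those of Nr3c1, Nr3c2 and Hsd11b1 overlap with the Lewis points.

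The glucocorticoid receptor gene Nr3c1 had normalized signals of 513, 522 and 558 in the Lewis rats numbered 1, 2 and 3, and 537, 594 and 615 in the Dahl S rats so numbered. All values below keep this order, and the ranges of Nr3c1 overlapped. Means were 531 ± 23.7 for Lewis and 582 ± 40.7 for Dahl S (SD, n = 3 each), a difference of 0.13 (SE 0.08, 95% interval -0.05 to 0.31, adjusted p = 0.34). A second, dim probe set of Nr3c1 read 112, 55.3 and 81.4 in Lewis and 62.7, 69.4 and 41.3 in Dahl S, and its difference had the other sign (-0.40, SE 0.21, adjusted p = 0.23). Its interval ran from -0.87 to 0.06. In the deposited intensities of the brighter probe set every Dahl S value exceeded every Lewis value, as for 27.1% of genes.

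The mineralocorticoid receptor gene Nr3c2 read 233, 278 and 295 in Lewis and 270.3, 224 and 251 in Dahl S. Its strain ranges overlapped, with the highest value in Lewis and the lowest in Dahl S. The difference was -0.10 (SE 0.11, 95% interval -0.35 to 0.14, adjusted p = 0.57). Intervals of this width do not show that receptor levels were equal.

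Hsd11b1, the enzyme gene that regenerates glucocorticoid, was read at 4770.5, 4448 and 4672 in Lewis and at 4534, 4564 and 4344 in Dahl S. The difference of -0.05 (SE 0.05, 95% interval -0.16 to 0.07, adjusted p = 0.60) was smaller than that of any other gene on the list, and its interval was the narrowest. Hsd11b2, which protects the mineralocorticoid receptor, read 2594, 2415 and 2611 in Lewis and 2117, 2156 and 2391 in Dahl S. Every Dahl S value was below every Lewis value, by a gap of 0.01 log2 between the closest arrays. The means were 2539.8 ± 109 and 2221 ± 148 (SD, n = 3 each), and the difference of -0.19 (SE 0.07, 95% interval -0.34 to -0.05) did not pass after adjustment over all probe sets (adjusted p = 0.070). It did pass when arrays were scaled to a common median instead (-0.29, adjusted p = 0.047). Other bright genes moved down under that scaling too. Hsd11b1 went to -0.19 (adjusted p = 0.13), and the median of the proximal tubule markers went from -0.17 to -0.39. Ranges that did not overlap, with Dahl S lower, were found for 16.7% of all genes tested.

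Sgk1, the serum- and glucocorticoid-regulated kinase gene, read 4813, 5366 and 4842 in Lewis and 2896, 3112 and 3191 in Dahl S. All 3 Dahl S values lay well below the Lewis values. The means were 5007 ± 312 and 3066 ± 153 (SD, n = 3 each), a 1.63-fold lower level in the salt-sensitive strain (difference -0.70, SE 0.06, adjusted p = 1.1e-05). Of all tested probe sets, 1.79% had a lower difference.

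Fkbp5 encodes a co-chaperone that binds the receptor complex and lowers its affinity for hormone, and is itself induced by glucocorticoid. Its brighter probe set read 292, 266 and 341 in Lewis and 175, 167 and 156 in Dahl S, a 1.73-fold lower level (difference -0.79, SE 0.11, adjusted p = 3.3e-04). The other probe set read 188, 193 and 236 in Lewis and 146, 119.5 and 114 in Dahl S and was lower as well (-0.64, SE 0.12, adjusted p = 0.0038). On neither probe set did the strains overlap.

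Tsc22d3, known as GILZ, encodes a leucine zipper protein that mediates anti-inflammatory effects of glucocorticoid and is also induced by aldosterone in the collecting duct. It read 1402, 1537 and 1379 in Lewis and 888, 891 and 894 in Dahl S. The Dahl S arrays were closer to each other for this gene than for any other on the list. The Dahl S level was 1.60-fold lower (difference -0.68, SE 0.07, adjusted p = 3.8e-05).

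Klf9, a Krüppel-like transcription factor gene induced by glucocorticoid, showed a smaller difference. Its brightest probe set read 1605, 1392 and 1493 in Lewis and 1213, 1269.9 and 1213 in Dahl S, with no overlap, and was 1.21-fold lower (-0.28, SE 0.07, adjusted p = 0.021). A second, dimmer probe set read 109, 155 and 134 in Lewis and 125, 127 and 139 in Dahl S and showed a difference of -0.02 (SE 0.13, 95% interval -0.30 to 0.26, adjusted p = 0.94). Another probe set of Klf9 was the only 1 of the 13 that failed the filter, with normalized signals of 15.0 to 29.7. Klf9 no longer passed when Dahl S array 1 (-0.26, adjusted p = 0.092), 2 (-0.30, adjusted p = 0.055) or 3 (-0.27, adjusted p = 0.10) was left out, without the variance trend (adjusted p = 0.069) and in the mean of the tested probe sets (-0.15, adjusted p = 0.21).

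Ddit4, also called REDD1, encodes an inhibitor of mTORC1 that responds to glucocorticoid as well as to hypoxia and other stresses. It read 456, 502 and 440.4 in Lewis and 541, 509 and 517 in Dahl S. Unlike the other response genes it was not lower in Dahl S on any array, and every Dahl S value exceeded every Lewis value, as for 18.4% of all genes tested. The difference of 0.16 (SE 0.08, 95% interval -0.02 to 0.34) did not pass (adjusted p = 0.22). Its interval lay wholly above the intervals of Sgk1, Fkbp5, Tsc22d3 and Klf9, though the contrast between genes was not tested.

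**Figure D2:**
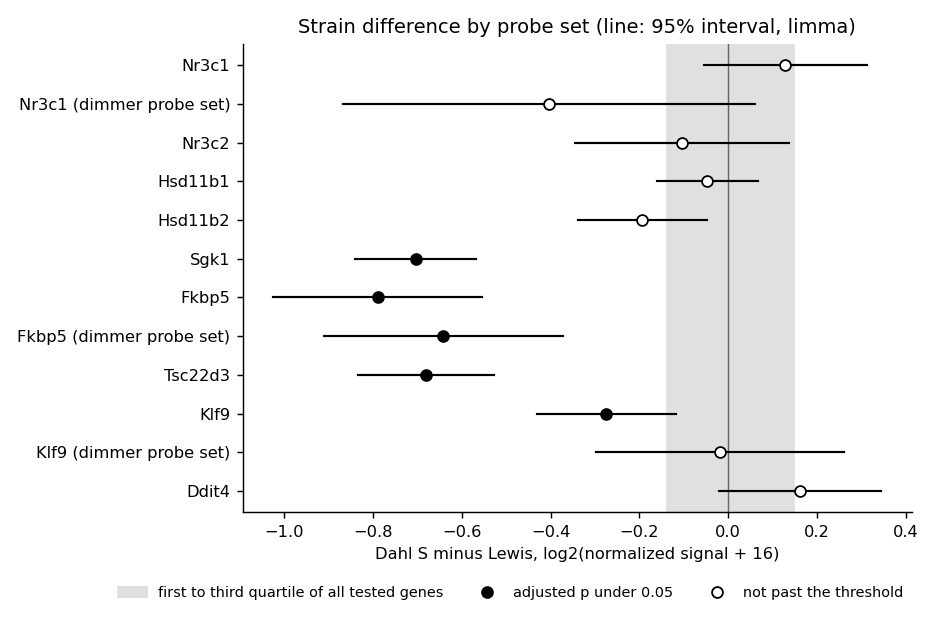
Difference between strains (x axis, log2, Dahl S minus Lewis) for each of the 12 tested probe sets, with 95% intervals from limma; the grey band runs from -0.14 to 0.15, the lower and upper quartiles of all 9540 genes tested. Filled points passed at an adjusted p under 0.05: Sgk1, Fkbp5 on both probe sets, Tsc22d3 and the brightest probe set of Klf9.

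These differences depended on bringing the arrays to a common level. In the deposited intensities Sgk1 read 3216, 6495 and 4421 in Lewis and 3221, 3699 and 3260.0 in Dahl S, so that Lewis array 1 was as low as the Dahl S arrays. Without normalization the median of all tested probe sets was 0.41 higher in Dahl S, and 0.227% of genes were called lower against 3.83% higher. There Sgk1 differed by -0.41 (adjusted p = 0.36), Fkbp5 by -0.37 (adjusted p = 0.41), Tsc22d3 by -0.28 (adjusted p = 0.54) and Klf9 by 0.11 (adjusted p = 0.79), and limma called 0 of the 9 genes, with 0 at an unadjusted p under 0.05 as well. With scaling of each array to a common median, Sgk1 gave -0.85, Fkbp5 -0.78, Tsc22d3 -0.71 and Klf9 -0.32, and 5 genes passed, all lower, where 7.63% of genes were lower and 7.85% higher. Without Lewis array 1, the dimmest, the same 4 response genes passed, with -0.71, -0.81, -0.69 and -0.22.

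**Figure D3:**
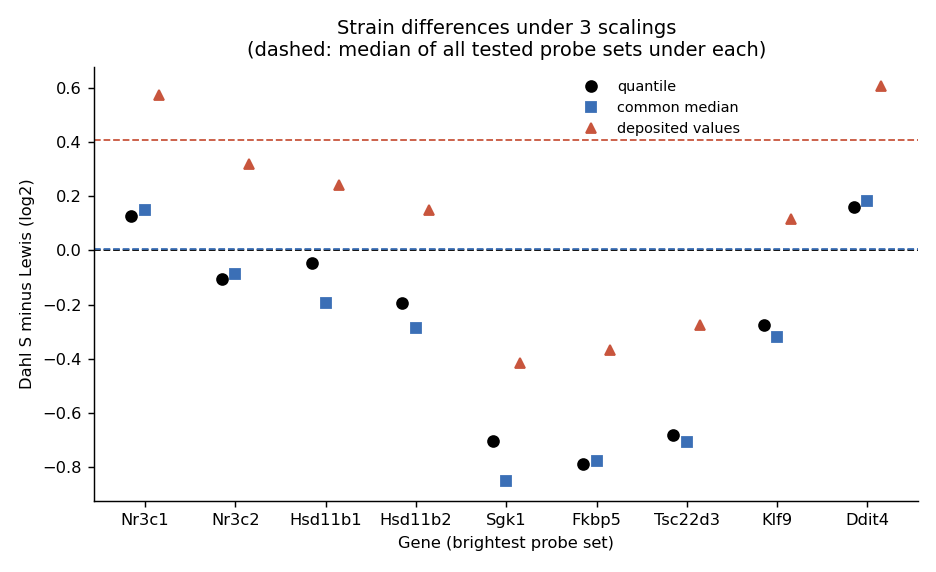
Difference between strains (y axis, log2) of the brightest probe set of each gene under quantile normalization, scaling to a common median and no normalization, with a dashed line at the median of all tested probe sets under each. Without normalization that median was 0.41, and the values of Sgk1, Fkbp5, Tsc22d3 and Klf9 lay below it.

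Whether the response genes moved together was asked at 2 levels. Between strains, 4 of 5 moved in the same direction, lower in Dahl S. Of these, Klf9 was called on its brightest probe set only, and its call was lost when any 1 Dahl S array was left out. Within a strain only 3 arrays are available and the strains separate, so no correlation over the 6 arrays is given, and deviations of each array from its strain mean are described instead. Among Lewis arrays, array 2 was the highest for Sgk1 (0.10 log2 above the strain mean), Tsc22d3 (0.10) and Ddit4 (0.11), but the lowest for Fkbp5 (-0.15) and Klf9 (-0.10). Array 3 was the highest for Fkbp5 (0.18) and array 1 for Klf9 (0.10).

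Among the Dahl S arrays, array 1 was the lowest for Sgk1 (-0.08) and the highest for Fkbp5 (0.07), and array 3 was the highest for Sgk1 (0.06) and the lowest for Fkbp5 (-0.08). Tsc22d3 deviated by at most 0.0054 on a Dahl S array. On Dahl S array 2 all 4 genes that were lower in that strain lay above their strain mean, by 2.1e-04 to 0.04, and Ddit4 lay below it (-0.04). No other array had all 4 of these genes on the same side. The count of response genes above their strain mean was 1, 3 and 1 of 5 in the Lewis rats and 2, 4 and 2 of 5 in the Dahl S rats. Of all tested probe sets, 47.5% (Lewis array 1) to 52.2% (Lewis array 3) lay above their strain mean on an array. The median deviation of the response genes ran from -0.05 to 0.10 over the 6 arrays, and that of all tested probe sets from -0.0097 to 0.0078. These ranges are not like for like. A median of 5 genes varies more than one of 15797 probe sets, which quantile normalization keeps near 0. The spread of Sgk1 within a strain was 0.16 log2 in Lewis and 0.14 in Dahl S, and the gap between the strains was 0.59. For Tsc22d3 the gap was 0.62, and for the brighter Fkbp5 probe set it was 0.56.

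**Figure D4:**
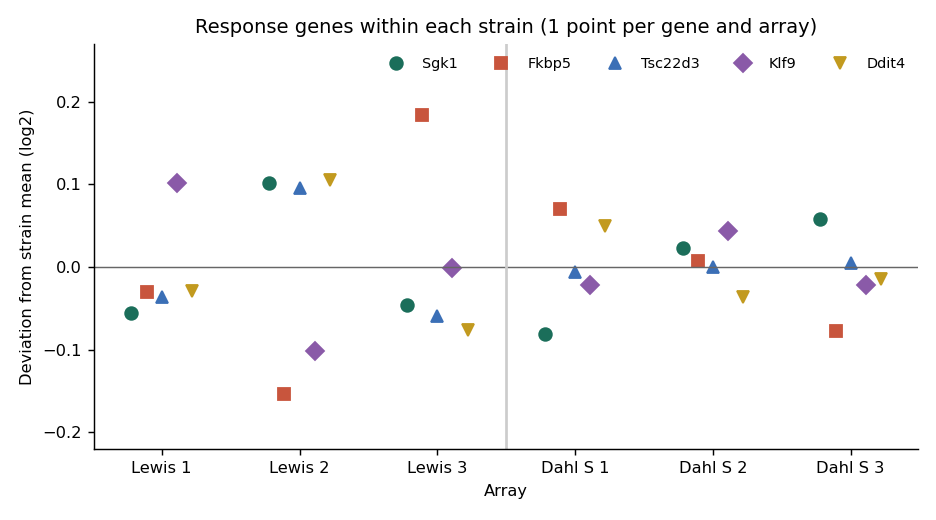
Deviation of each array from its strain mean (y axis, log2) for the brightest probe set of 5 response genes, with 1 point per gene and array. On Lewis array 2 Sgk1, Tsc22d3 and Ddit4 lie above the line, by 0.10 to 0.11, and Fkbp5 and Klf9 lie below it; Dahl S deviations span -0.08 to 0.07.

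Shown is the DNA, 250 bases, before 1 annotated start of each of the 4 genes that were lower. Receptor binding near a promoter is 1 route to induction. RefSeq windows (GRCr8 build) were matched for 5 of the 6 response genes, 9 windows in all, because Sgk1 and Tsc22d3 have 3 annotated starts each. The palindromic glucocorticoid response element, made of AGAACA and its reverse complement with 3 bases between them, and AGAACA alone, which is contained in it, were searched on both strands. The TATA motif, TATAAA, was searched on the gene's strand, and TGACGT, the core of cyclic AMP response elements, on both. Capitals mark TATAAA in the windows of Sgk1 (upstream-most start) and Tsc22d3 (downstream-most start) and TGACGT in that of Klf9. Of the 3 Tsc22d3 windows only the one shown holds TATAAA, and another Sgk1 window, not shown, holds it at -33.
Sgk1 (chr1:24807232-24807481, minus strand): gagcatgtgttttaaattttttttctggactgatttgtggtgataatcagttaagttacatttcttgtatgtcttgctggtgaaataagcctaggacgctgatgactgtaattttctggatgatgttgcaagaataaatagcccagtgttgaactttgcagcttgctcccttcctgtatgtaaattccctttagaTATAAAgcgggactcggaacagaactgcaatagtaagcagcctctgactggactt
Fkbp5 (chr20:6543556-6543805, minus strand): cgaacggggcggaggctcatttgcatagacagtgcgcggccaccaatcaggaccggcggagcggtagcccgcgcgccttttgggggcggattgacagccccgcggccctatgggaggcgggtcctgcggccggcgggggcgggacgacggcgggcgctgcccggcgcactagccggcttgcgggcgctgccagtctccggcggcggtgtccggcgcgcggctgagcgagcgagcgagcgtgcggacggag
Tsc22d3 (chrX:109010035-109010284, minus strand): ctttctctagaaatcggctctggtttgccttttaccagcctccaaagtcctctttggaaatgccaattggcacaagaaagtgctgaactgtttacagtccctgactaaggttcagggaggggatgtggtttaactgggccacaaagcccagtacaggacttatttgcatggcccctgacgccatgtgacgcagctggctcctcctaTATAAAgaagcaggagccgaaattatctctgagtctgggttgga
Klf9 (chr1:230126396-230126645, plus strand): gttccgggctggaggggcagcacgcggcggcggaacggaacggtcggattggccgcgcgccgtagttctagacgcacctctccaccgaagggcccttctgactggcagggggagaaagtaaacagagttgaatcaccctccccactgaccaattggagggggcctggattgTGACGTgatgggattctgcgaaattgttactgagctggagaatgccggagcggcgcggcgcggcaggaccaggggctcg

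Of the 9 windows, 0 held the palindrome and 0 held AGAACA, against 0.012% and 17.5% of all 33469 windows of this length. TATAAA was present in 3 of the 9, beginning at position -33 or -55 in Sgk1 windows and -44 in a Tsc22d3 window, counted from the annotated start, and in 8.06% of all windows. TGACGT was found at -79 in Klf9 and in 6.95% of all windows. The absence of a match says only that these letters are not in these windows.

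Other genes known to respond to glucocorticoid went both ways. Of 34 genes on a list of glucocorticoid-induced genes, 33 had a probe set and 30 were tested: 9 were lower in Dahl S, 5 were higher and 16 did not pass. Over all genes tested, 7.62% were lower and 9.04% were higher. The median difference of the list was -0.18, and in the deposited values it was 0.23, against 0.41 for all tested probe sets there. Bcl6, a transcriptional repressor gene, read 747, 802 and 789 in Lewis and 382, 447 and 391 in Dahl S (-0.91, SE 0.09, adjusted p = 1.7e-05). Pck1, the gluconeogenic enzyme gene that glucocorticoid induces, was lower by a smaller amount (-0.49, SE 0.05, adjusted p = 2.5e-05). The clock gene Per1 (-0.81, SE 0.13, adjusted p = 0.0012) and the metallothionein gene Mt2A (-0.34, SE 0.06, adjusted p = 0.0015) were lower too.

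In the opposite direction, Igfbp1, an insulin-like growth factor binding protein gene, read 453, 519 and 520 in Lewis and 800, 985 and 1047 in Dahl S (0.90, SE 0.10, adjusted p = 9.5e-05). Cebpd, a transcription factor gene, rose by 0.59 (SE 0.12, adjusted p = 0.0064), while its other probe set showed 0.19 (adjusted p = 0.42). Rasd1, named for its induction by dexamethasone, was higher by 0.72 (SE 0.13, adjusted p = 0.0025), but it passed the filter through the Dahl S arrays alone and so had to differ; without it, 4 genes of the list were higher. Gadd45a (-0.36, adjusted p = 0.0086), a growth arrest gene, did not pass without Dahl S array 1, and Arrdc3 (0.29, adjusted p = 0.0099), an arrestin family gene, did not pass without Dahl S array 1 or 3 or with a common median. Irs2 (0.48, adjusted p = 0.047), an insulin receptor substrate gene, overlapped between strains and passed in only 2 of the 6 fits that left out an array, those lacking array 1 of either strain, and did not pass with the replicate number as a block (adjusted p = 0.054). The classic liver target Tat read 0.600 to 2.43 over the 6 arrays and was not tested. Without Dahl S array 1, 2 or 3 the list had 4, 5 or 6 genes lower and 3, 3 or 2 higher. Calls over all genes fell in the same fits, from 727 lower and 862 higher to 448 and 457, 470 and 466, or 414 and 433. In the deposited values 0 of the list were lower and 3 higher, so that Bcl6 (-0.49, adjusted p = 0.35), Pck1, Per1 and Mt2A did not pass there.

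Among 20 genes of the aldosterone-sensitive distal nephron, 17 had a probe set and 15 were tested: 4 were lower, 1 was higher and 10 did not pass, with a median of -0.13 (0.29 in the deposited values). Beside these counts, 7.62% of all genes tested were lower and 9.04% higher. Usp2, a deubiquitinase gene induced by aldosterone and also by the clock, read 649, 543 and 439 in Lewis and 205, 235 and 195 in Dahl S. It was 2.43-fold lower (-1.28, SE 0.13, adjusted p = 3.2e-05), and its other probe set was lower still (-1.94, SE 0.20, adjusted p = 3.0e-05). Fxyd4, a sodium pump regulator gene of the collecting duct, was lower too (-0.43, SE 0.08, adjusted p = 0.0022).

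The calls of Scnn1a (-0.52, adjusted p = 0.042), the alpha subunit gene of the epithelial sodium channel, of Kcnj1 (-0.28, adjusted p = 0.044), a potassium channel gene, and of Cnksr3 (0.31, adjusted p = 0.032), a scaffold gene induced by aldosterone, were each lost without Lewis array 2, Dahl S array 1 or Dahl S array 2. Leaving out Dahl S array 3 also ended the calls of Scnn1a and Cnksr3, Lewis array 1 that of Scnn1a and Lewis array 3 that of Kcnj1. The other probe set of Scnn1a gave -0.47 and did not pass (adjusted p = 0.17). With the replicate number as a block Cnksr3 did not pass (adjusted p = 0.053). In the deposited values none of the 15 passed, Usp2 included (-0.85, adjusted p = 0.13). The sodium channel subunit genes Scnn1b (-0.13, adjusted p = 0.37) and Scnn1g (0.09, adjusted p = 0.62; other probe set -0.21, adjusted p = 0.16) did not pass.

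The receptor is held by chaperones and works through coregulators. Of 24 such genes listed, 19 had a probe set and 18 were tested: 1 was higher, 1 was lower and 16 did not pass, beside 16.7% called in either direction over all genes tested, with a median of 0.08 (0.48 in the deposited values). The chaperone gene Hsp90ab1, whose product holds the receptor ready for hormone, differed by 0.11 (SE 0.09, adjusted p = 0.42). Fkbp4, which encodes the co-chaperone that competes with the Fkbp5 product, read 772, 677 and 610 in Lewis and 579, 603 and 594 in Dahl S (-0.20, SE 0.09, adjusted p = 0.16). Pias1, a SUMO ligase gene, was lower on its brighter probe set (-0.54, adjusted p = 0.0056) but not on its other (0.04, adjusted p = 0.84). The gene gave -0.06 without Lewis array 1 (adjusted p = 0.76) and 0.04 without Lewis array 2. The brightest probe set was chosen again in each fit. The probe set that was lower read 295, 276 and 223 in Lewis and 172, 181 and 175 in Dahl S. Values as near 0 as -0.06 and 0.04 therefore belong to another probe set. They do not show whether the call of the lower probe set depended on either array. The probe sets of the corepressor gene Ncor1 disagreed too: the brightest, which stood for the gene, gave -0.02 (adjusted p = 0.89), and the others -0.86 (adjusted p = 1.8e-04) and 0.20 (adjusted p = 0.28). Dnajb1, a heat shock gene (0.26, adjusted p = 0.036), kept its call in only 1 of the 6 fits that left out an array, the fit lacking Lewis array 1, and lost it with the replicate number as a block (adjusted p = 0.058).

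Genes of corticosteroid metabolism and binding were mostly dim: of 15 listed, 12 had a probe set and 4 were tested, of which 1 was lower and 3 did not pass (median -0.24, and 0.17 in the deposited values). Over all genes tested 7.62% were lower. H6pd, which supplies the cofactor for the Hsd11b1 enzyme, read 351, 386 and 372 in Lewis and 296, 318 and 313 in Dahl S. Its difference did not pass (-0.25, SE 0.09, adjusted p = 0.074). Every Dahl S value was below every Lewis value, as for 16.7% of all genes tested. Hsd17b11, a steroid dehydrogenase gene, was lower (-0.24, adjusted p = 0.045), a call kept only without Lewis array 1 when arrays were left out in turn.

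Of the tested genes that glucocorticoids lower in inflammation, immediate-early genes among them, most were higher in Dahl S. Of 18 listed, 17 had a probe set and 8 were tested: 7 were higher and 1 did not pass. Under the stricter filter, which requires signal on all arrays, 5 of 5 were higher, and in the deposited values 6 of 8. Beside these counts, 9.04% of all genes tested were higher, 753 of 8788 under the stricter filter and 3.83% in the deposited values. Fos and Il1b, which are among the 7 and the 6, passed the filter through the Dahl S arrays alone and so had to differ. In each fit without 1 Dahl S array neither was tested, and 5 of 6 were higher. Over all genes tested, 433 to 466 of 9401 to 9421 were higher in those fits. On the list, 9 genes were too dim to test. The chemokine gene Ccl2 read 119.5, 128 and 128 in Lewis and 227, 236 and 237 in Dahl S (0.82, SE 0.10, adjusted p = 9.8e-05). The leukocyte adhesion genes Vcam1 (0.76, SE 0.09) and Icam1 (0.67, SE 0.10) and the immediate-early genes Egr1 (1.44, SE 0.10) and Jun (0.61, SE 0.07) were also higher.

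**Figure D5:**
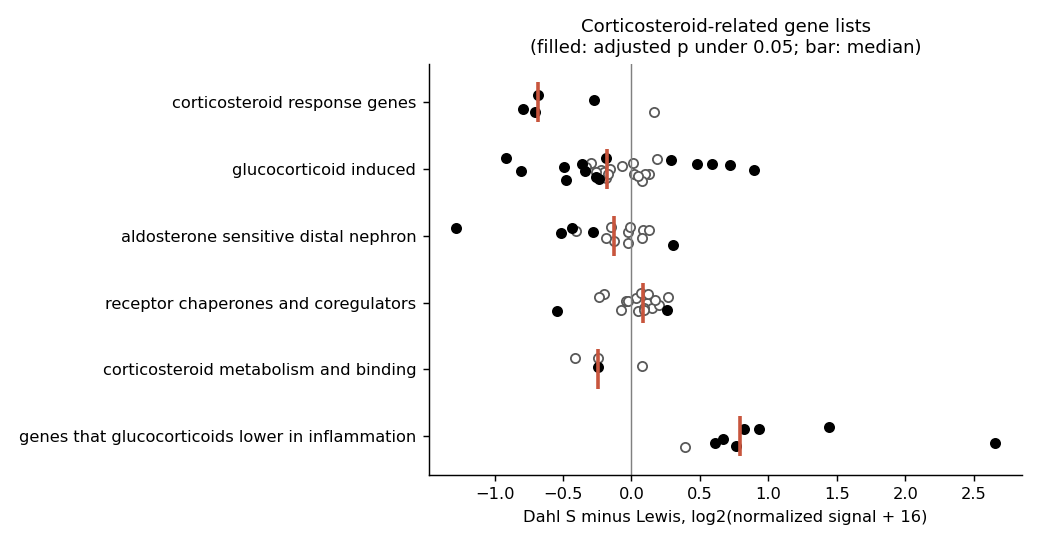
Difference between strains (x axis, log2, Dahl S minus Lewis) for each tested gene of the corticosteroid response genes and of 5 related lists; filled points passed at an adjusted p under 0.05 and bars are list medians. The response genes have a median of -0.68 and the glucocorticoid-induced list one of -0.18, with genes on both sides of 0.

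Markers of several cell types moved with the strains, and their part in the differences above was not tested. The counts below stand beside 7.62% lower and 9.04% higher in Dahl S over all genes tested. The lists share genes, so their counts are not independent. Scnn1b, Scnn1g, Slc12a3 and the lower genes Fxyd4 and Kcnj1 are also on the aldosterone-sensitive distal nephron list. Calb1 is a marker of both principal and connecting cells and the distal convoluted tubule. Of 12 principal and connecting cell markers, all had a probe set and 11 were tested: 3 were lower and 8 did not pass (median -0.16, and 0.13 in the deposited values). Their summed normalized signal was 15067 to 15348 in Dahl S and 16319 to 17122 in Lewis. Leukocyte markers ran the other way, with 10 of 11 tested higher (15 listed, all with a probe set) and sums of 6919 to 7255 in Dahl S and 5409.5 to 5538 in Lewis. Of 11 proximal tubule markers tested 6 were lower, of 5 glomerular markers 3, of 6 endothelial markers 2 and of 3 distal convoluted tubule markers 0, and of 6 thick ascending limb markers 1 was lower and 1 higher. In fat, 1 of 2 tested was higher.

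The adrenal gland lies on the kidney and makes the hormones concerned. Of 10 adrenal cortex markers 8 had a probe set. Star and Cyp11b1, which belong to steroid synthesis, had normalized signals of 3.02 to 18.7 and 1.75 to 10.2 on the 6 arrays and failed the filter, as did Cyp21a1, Nr5a1 and Cyp11a1, of which Cyp11a1 read 4.87 to 34.5 in Lewis and 54.3 to 66.7 in Dahl S. The summed signal of the list was 1441 to 1489 in Dahl S and 1509.9 to 1616 in Lewis, most of it from Fdx1, which is also expressed outside the adrenal and read 1094 to 1113 in Dahl S and 1245 to 1389.9 in Lewis. Of the 3 tested, Mrap was higher (0.87), Fdx1 was lower (-0.25) and Scarb1 did not pass (0.27). None of the markers on any of these lists was at 0 on an array.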

How the data were processed

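RNA from whole kidneys of 6 rats, 3 per strain, was hybridized to 1 Affymetrix array each, with groups and replicate numbers taken from the sample titles. The authors deposited 1 linear signal intensity per probe set and array, computed with GeneChip Operating Software 1.4 per the labels; their scaling target is not given. Because brightness differed between arrays, log2(intensity + 16) was quantile-normalized after leaving out 57 array controls. Symbols came from the platform annotation, updated by gene identifier to RefSeq (GRCr8); 20758 of 20826 probe sets with 1 symbol matched.

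Probe sets exceeding the overall median value on 3 or more arrays were tested, 15797 in all. Strains were compared with limma 3.58.1 in R 4.3.3 (variance trend, two-sided, Benjamini-Hochberg over all probe sets tested, threshold 0.05). The brightest probe set stood for a gene and was chosen again in each alternative fit. The steps were tested on simulated data. Precision is limited by the number of arrays (with 3 per strain, the smallest exact permutation p is 0.1). Probes were not masked for strain sequence differences. The p-values reflect the spread between these rats.

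The members and lists were chosen with earlier results of these data known. Named genes are all members and, for each related list, up to 5 called genes per direction in order of adjusted p, with others named after their values were seen: Scnn1b, Scnn1g, Hsp90ab1, Fkbp4, Ncor1, H6pd, Tat, Icam1, Il1b, the markers and, for their change of sign, Errfi1, Cited2 and Glul. Alternatives covered normalization, pseudocount (64, or a floor of 1), filter, variance trend, mean of probe sets, symbols, replicate block and leaving out each array.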

Additional observations from a re-analysis of the deposited data

How the results depend on the processing

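Without normalization 0 of the 9 genes and 0 of the response genes passed, and 9 genes of the related lists did, against 4, 4 and 29 as reported. The other alternatives gave 3 to 5 of the 9 genes and 3 or 4 response genes, and leaving out 1 array gave 3 or 4 of either. For the related lists the count ran from 15 to 34 with 1 array left out, and was 15, 16 and 18 without Dahl S array 1, 2 and 3. Without normalization, where the median of all tested probe sets was 0.41 higher in Dahl S, several differences had the other sign: Nr3c2 0.32, Hsd11b1 0.24, Hsd11b2 0.15, Klf9 0.11, its dimmer probe set 0.38, Errfi1 0.088, Glul 0.035, Gadd45a 0.053, Cited2 0.14, Fxyd4 0.0019, Kcnj1 0.085 and Hsd17b11 0.15. Nr3c1 gave -0.14 as the mean of its probe sets, of which the dimmer had a negative difference. The dimmer Klf9 probe set gave 0.0041 with a common median and -0.14 to 0.088 with 1 array left out. With 1 array left out Pias1 gave -0.65 to 0.038, where the brightest probe set, chosen again in each fit, was not the same throughout.

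The calls of Sgk1, Fkbp5 and Tsc22d3 were lost in the deposited values and in none of the other 15 alternatives; with 1 array left out their differences ran from -0.73 to -0.66, -0.86 to -0.70 and -0.71 to -0.63. The submitters describe 3 independent experiments but do not say that rats with the same number belong to the same experiment. Same-numbered arrays of the strains had deviations that correlated at -0.05, -0.10 and 0.11. Arrays with different numbers gave -0.07 to 0.13, the highest for Lewis array 2 with Dahl S array 1. The numbers were therefore not taken to pair the rats. With the replicate number as a block, 4 of the 9 genes, 4 response genes and 26 list genes passed; Cnksr3, Dnajb1 and Irs2 did not.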
